A study of Homo sapiens with 6 samples.

Results

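The genes described here handle iron in MIA PaCa-2 cells, an established human pancreatic carcinoma line. They are 10 named genes, 9 of iron storage, uptake, export, sensing and ferritinophagy and the lipid-metabolic gene ACSL4, taken by symbol from a table of 60604 genes. All 10 were found in the table, and 9 of them passed the filter on low counts, which left 15022 genes to be tested. RNA was sequenced from 3 libraries of cells treated with 12.5 µg/ml of BP, an agent that the labels do not spell out, and from 3 libraries of cells given the same BP together with 10 mg/ml of Huaier, an extract of a medicinal fungus. Every library therefore carries BP, the cells are labelled wild type, and no library of cells free of BP was used here. The sources used here do not give the treatment time. The comparison shows what differed when Huaier was added to BP in 1 cell line. Since the labels do not say whether the 3 libraries of a group stem from separate cultures, p-values reflect only how far these libraries spread, and that spread may be technical.

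Total counts on genes lay between 15657593 and 17036565 per library. BP+Huaier 3 lay between the groups on the first principal component (72.4% of the variance), at 11.46, against 65.09 and 65.99 for the other BP+Huaier libraries and -50.55 to -43.39 for the BP libraries. Libraries also differed by the GC content of transcripts. Over 14896 genes, which do not count as replicates, a library's log2 ratio to BP correlated with GC content at r = 0.44, 0.31 and 0.04 in BP+Huaier 1, 2 and 3, and, for BP 1, 2 and 3, each set against the other BP libraries, at r = 0.04, -0.49 and 0.48. The keratin genes KRT8, KRT18 and KRT19 and vimentin (VIM) were abundant in all libraries (at least 212 CPM, which is counts per 1000000 counts of the TMM-scaled library), while the epithelial markers EPCAM and CDH1 were at or near 0. The summed level of 6 epithelial and carcinoma markers was 5031 to 5204 CPM in BP and 4662 to 6715 in BP+Huaier, with 2 of 4 tested markers higher. Most of that sum was VIM, at 3136 to 3805 CPM over all libraries. KRT8, KRT18 and KRT19 were at most 1017, 463 and 234 CPM in BP. They were at 1664, 938 and 614 CPM in BP+Huaier 1 and at 1549, 891 and 470 in BP+Huaier 2. In BP+Huaier 3 they were at 767, 482 and 276 CPM. The summed level of 6 fibroblast markers was 501 to 557 CPM in BP and 385 to 489 in BP+Huaier, with LUM and DCN at 0. Most of the fibroblast sum was COL1A2, at 373 to 548 CPM over all libraries, and of 3 tested markers 1 was called, higher: COL1A1, at 1.22 to 1.41 CPM in BP and 5.18 to 6.42 in BP+Huaier. The sums of 4 endothelial markers were 17.56 to 21.02 and 12.08 to 14.66 CPM, with the 1 tested marker, CDH5, called lower. Those of 6 leukocyte and 5 erythroid markers reached at most 1.5 CPM, with PTPRC, CD3E and HBB at 0. The part of these differences in the results was not tested.

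Iron enters most cells bound to transferrin through the transferrin receptor, encoded by TFRC, is reduced in endosomes by STEAP3 and moves into the cytosol through the transporter DMT1, encoded by SLC11A2. Iron not in use is stored in ferritin, a hollow shell built of heavy chains (FTH1), which oxidise iron, and light chains (FTL), which help it to mineralise. NCOA4 carries ferritin to lysosomes, where the iron is released again, a selective form of autophagy called ferritinophagy, and SLC40A1, ferroportin, exports iron from the cell. The iron regulatory proteins IRP1 (ACO1) and IRP2 (IREB2) bind iron-responsive elements when iron is scarce. Bound in front of the coding sequence, as in ferritin transcripts, they block translation, and bound behind it, as in TFRC, they protect the transcript from decay. A count of transcripts therefore does not measure the translational part of this control.

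The iron-responsive elements of the members are shown because they are the sequences that IRP1 and IRP2 bind. The annotated transcripts of GENCODE release 29 (GRCh38) were searched on the sense strand for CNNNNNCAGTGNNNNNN, a single C, a 5-base stem, the 6-base loop CAGTGN and the other side of the stem, with all 5 stem pairs complementary or G-T. Of 19684 genes with a protein-coding transcript, 291 (1.48%) held a match. Among the 10 iron genes, FTH1, FTL, SLC40A1 and TFRC did, TFRC with 4 matches. Each window of 30 bases is given 5′ to 3′ as DNA letters, with the loop in capitals, and TFRC windows are in transcript order.
FTH1, 5′ UTR, chr11:61967573-61967602, minus strand: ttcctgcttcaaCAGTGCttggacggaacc
FTL, 5′ UTR, chr19:48965335-48965364, plus strand: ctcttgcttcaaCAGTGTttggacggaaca
SLC40A1, 5′ UTR, chr2:189580660-189580689, minus strand: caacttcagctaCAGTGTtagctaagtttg
TFRC, 3′ UTR, chr3:196050978-196051007, minus strand: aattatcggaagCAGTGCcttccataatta
TFRC, 3′ UTR, chr3:196050574-196050603, minus strand: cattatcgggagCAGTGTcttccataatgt
TFRC, 3′ UTR, chr3:196050509-196050538, minus strand: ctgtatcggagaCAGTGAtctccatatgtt
TFRC, 3′ UTR, chr3:196050462-196050491, minus strand: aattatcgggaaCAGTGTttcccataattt
The FTH1 and FTL windows were identical at 26 of 30 positions. The FTH1 element lay in 7 of 8 protein-coding transcripts, the TFRC elements in 3 of 4 and the SLC40A1 element in 1 of 5. No match in SLC11A2 or the remaining members says only that these letters, with this pairing rule, are not in their annotated transcripts.

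With Huaier added to BP, both ferritin chains rose, FTL 2.09-fold and FTH1 1.75-fold, as did the endosomal reductase STEAP3, 1.43-fold. IREB2, which encodes IRP2, fell 1.73-fold. The receptor TFRC, the transporter SLC11A2, the ferritinophagy receptor NCOA4, the second regulatory protein ACO1 and ACSL4 did not pass the test, and SLC40A1 was too low to be tested. Thus 3 of 9 tested members were called higher and 1 lower, a call being a Benjamini-Hochberg adjusted p below 0.05 over all genes in edgeR's quasi-likelihood test. Among all 15022 genes tested, 29.3% were called, 14.4% higher and 15.0% lower in BP+Huaier. Of the 9 members 44.4% were called, a share of so few genes that it is given as a description with no test. The median log2 fold change was 0.23 over the 9 members and -0.02 over all genes tested. The groups did not overlap for 4 members on the higher side and 1 on the lower side, where 46.8% of all genes tested did not overlap, 22.0% higher and 24.8% lower. Without BP 1, BP 2 or BP 3 no member was called by edgeR, with 4 members at an unadjusted p under 0.05 in each case, while the calls over all genes dropped to between 11.2% and 13.4%. Without BP+Huaier 1, 2 and 3, 3, 1 and 5 members were called, beside 23.2%, 12.6% and 59.8% of all genes.

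**Figure D1:**
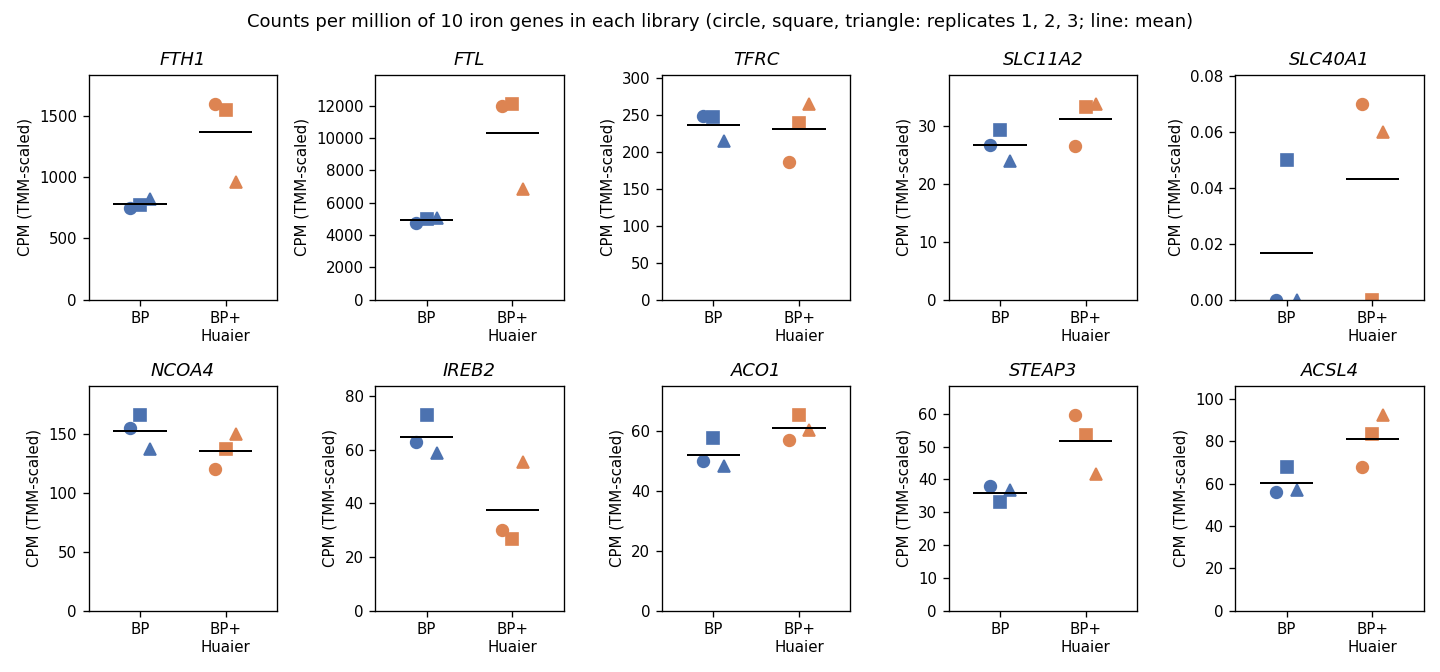
CPM (TMM-scaled, vertical axis from 0, a separate scale for each gene) of the 10 iron genes in the 3 BP and 3 BP+Huaier libraries, with a line at the group mean. FTH1, FTL and STEAP3 had each BP+Huaier library above the BP libraries and IREB2 had each below, with BP+Huaier 3 nearest to the BP libraries for all 4; SLC40A1 stayed below 0.1 CPM.

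FTL (ENSG00000087086.15, GRCh38 chromosome 19, 48965309 to 48966879), the ferritin light chain, was at 4733, 5002 and 5040 CPM in BP 1, 2 and 3 and at 12000, 12104 and 6849 CPM in BP+Huaier 1, 2 and 3. BP+Huaier 1 and 2 lay close together and far above BP, and BP+Huaier 3 lay between them and the BP libraries. The group means of 4925 ± 167 and 10317 ± 3004 CPM (SD, n = 3) gave a log2 fold change of 1.07 with a standard error of 0.23 (edgeR adjusted p = 0.011). In these bulk libraries a change in the number of cells of one kind and a change in RNA per cell cannot be told apart. The direct share of FTL, which needs no scaling factor, was 0.522%, 0.553% and 0.546% of all counts in BP 1, 2 and 3 and 1.02%, 1.04% and 0.711% in BP+Huaier 1, 2 and 3. FTL was the fourth to sixth most counted gene in every library, ranked 6, 6 and 5 in the BP libraries and 4 in each BP+Huaier library. Leaving out BP+Huaier 3 gave a log2 fold change of 1.30, and leaving out BP 1, BP 2 or BP 3 ended the call (edgeR adjusted p = 0.059, 0.060 and 0.054, range 1.2e-08 to 0.060 over 16 alternatives). In a fit corrected for the trend of each library with transcript GC content and length, called the GC-corrected fit, the log2 fold change of FTL was 0.94 (edgeR adjusted p = 0.0021).

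FTH1 (ENSG00000167996.16, chromosome 11, 61959718 to 61967634), the heavy chain with the ferroxidase activity of ferritin, was at 750, 771 and 819 CPM in BP 1, 2 and 3. It was at 1593, 1544 and 960 CPM in BP+Huaier 1, 2 and 3, again with BP+Huaier 3 closest to BP and no overlap between the groups. Its group means were 780 ± 35.66 and 1366 ± 353 CPM (SD, n = 3), and its log2 fold change was 0.81 with a standard error of 0.20 (edgeR adjusted p = 0.019). Leaving out BP 1, BP 2, BP 3 or BP+Huaier 2 ended the call (edgeR adjusted p = 0.086, 0.087, 0.069 and 0.078, range 2.3e-07 to 0.087 over 16 alternatives), with log2 fold changes of 0.78, 0.80, 0.87 and 0.72. In the GC-corrected fit the log2 fold change of FTH1 was 0.82 (edgeR adjusted p = 0.0030). Of the exon bases of FTH1 63.2% also belong to BEST1 on the opposite strand, which averaged 6.3 counts per library. The sources used here do not state if counting was by strand, so how reads on the shared bases were counted is unknown.

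The ratio of light to heavy chain counts can be taken within a library, free of any scaling between libraries. There were 6.31, 6.49 and 6.15 FTL counts for each FTH1 count in BP 1, 2 and 3 and 7.53, 7.84 and 7.14 in BP+Huaier 1, 2 and 3. Every BP+Huaier library, BP+Huaier 3 included, had a larger ratio than every BP library. The log2 ratio of FTH1 to FTL counts went from -2.66 ± 0.04 to -2.91 ± 0.07 (SD, n = 3), a difference of -0.25 (two-sided exact permutation test, p = 0.10, the smallest value that 3 libraries against 3 can give). This ratio compares counts and not levels per length, and it is not corrected for GC content, which is 50.12% in FTH1 and 56.26% in FTL. In the GC-corrected fit the log2 fold changes of FTH1 and FTL, 0.82 and 0.94, lay closer together than the 0.81 and 1.07 without that correction, and their difference was not tested there. Human ferritin has many processed pseudogenes that can take its reads. The table named 25 copies of FTH1, of which 15 had counts, and 16 copies of FTL, of which 3 had counts. The copies held 2.71% to 3.50% of the FTH1 family's counts and 0.0050% to 0.0191% of the FTL family's. The most counted FTH1 copy, FTH1P8, had 214, 168 and 223 counts in BP 1, 2 and 3 and 365, 275 and 258 in BP+Huaier 1, 2 and 3, and rose with FTH1 (0.84 ± 0.23 on the log2 scale, SE; edgeR adjusted p = 0.026). The next, FTH1P23, was 0.73 ± 0.26 higher on the log2 scale and missed the threshold (edgeR adjusted p = 0.062), and the 2 most counted FTL copies, FTLP12 and FTLP3, had at most 12 counts in a library and were not tested. With pseudogene counts added to their parents the difference of the log2 ratio was still -0.25. The sources used here do not say how reads that fit several copies were treated. If such reads were left out, they are in none of these counts, and adding the copies cannot show their effect.

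**Figure D2:**
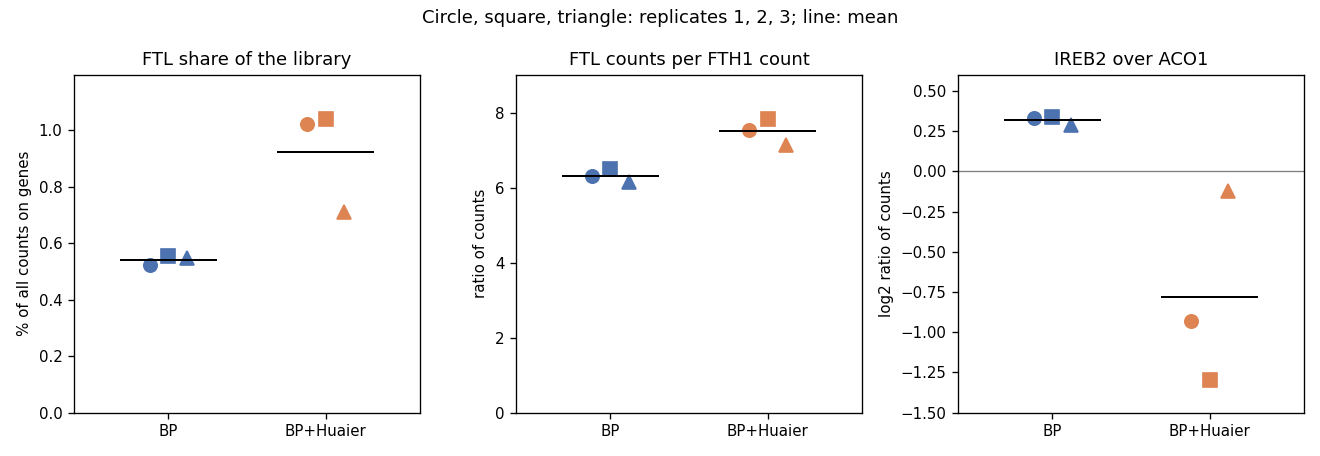
Left, FTL counts as a percentage of all counts on genes; middle, FTL counts for each FTH1 count; right, log2 ratio of IREB2 to ACO1 counts, each by library with a line at the group mean. The FTL share was 0.522% to 0.553% in BP and 0.711% to 1.04% in BP+Huaier. The log2 ratio of IREB2 to ACO1 was 0.29 to 0.34 in BP and -1.30 to -0.12 in BP+Huaier. It compares counts and not levels per length, so 0 does not mean equal levels, and it was chosen after its values were seen.

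Of the genes of iron uptake, STEAP3 rose. STEAP3 (ENSG00000115107.20, chromosome 2, 119223831 to 119265652), which reduces iron released from transferrin in endosomes, was at 37.9, 33.1 and 36.9 CPM in BP 1, 2 and 3 and at 59.7, 53.6 and 41.7 CPM in BP+Huaier 1, 2 and 3. The groups did not overlap, and BP+Huaier 3 was the lowest of its group. The log2 fold change was 0.52 ± 0.16 (SE, n = 3; edgeR adjusted p = 0.041). This call was lost without each library other than BP+Huaier 3 (edgeR adjusted p = 0.11, 0.16 and 0.11 for BP 1, 2 and 3 left out, 0.094 and 0.13 for BP+Huaier 1 and 2). It was also lost when libraries were scaled by size alone (log2 fold change 0.24, edgeR adjusted p = 0.20), in a range of 1.9e-04 to 0.20 over 16 alternatives. A 5 CPM minimum ended the call as well (0.067). In the GC-corrected fit it was 0.29 (0.047), and with the replicate number as a block added to that fit it was 0.29 and not called (0.073).

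TFRC (ENSG00000072274.13, chromosome 3, 196027183 to 196082096), the receptor for transferrin-bound iron and the member with elements behind its coding sequence, was at 249, 248 and 215 CPM in BP 1, 2 and 3. In BP+Huaier 1, 2 and 3 it was at 187, 240 and 265 CPM, so that 1 library lay below and 1 above all BP libraries. The log2 fold change was -0.04 ± 0.16 (SE; edgeR adjusted p = 0.87), with a 95% interval of -0.40 to 0.33. Its sign was kept in 11 of 16 alternatives, which ran from -0.29 to 0.15, and none called it. The log2 ratio of TFRC to FTH1 counts was -1.59, -1.64 and -1.93 in BP 1, 2 and 3 and -3.09, -2.68 and -1.86 in BP+Huaier 1, 2 and 3. BP+Huaier 3 lay among the BP values for this ratio.

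SLC11A2 (chromosome 12, 50979401 to 51028566), the transporter DMT1 that moves iron out of endosomes, was at 26.7, 29.3 and 24 CPM in BP 1, 2 and 3 and at 26.5, 33.3 and 33.8 CPM in BP+Huaier 1, 2 and 3. The groups overlapped through BP+Huaier 1, and the log2 fold change of 0.23 ± 0.16 (SE; 95% interval -0.13 to 0.58) missed the threshold (edgeR adjusted p = 0.29, range 0.024 to 0.92 over 16 alternatives). In the GC-corrected fit it was 0.37 and called (edgeR adjusted p = 0.024), and with scaling by library size alone it was -0.03. Counts per gene do not separate SLC11A2 transcripts with different ends. The exporter SLC40A1, ferroportin, had 0, 1 and 0 counts in BP 1, 2 and 3 and 1, 0 and 1 in BP+Huaier 1, 2 and 3. All are under the floor of 3 counts, which corresponds to 0.16 to 0.22 CPM, so no fold is given and a transcript below that level was not detectable at this depth.

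NCOA4 (ENSG00000266412.6, chromosome 10, 46005088 to 46030623), the receptor that brings ferritin to autophagosomes, was at 155, 166 and 137 CPM in BP 1, 2 and 3 and at 120, 137 and 150 CPM in BP+Huaier 1, 2 and 3. The groups overlapped, with BP+Huaier 3 inside the BP range. The log2 fold change was -0.18 ± 0.14 (SE; edgeR adjusted p = 0.37), with a 95% interval of -0.50 to 0.15. It was below 0 in all 16 alternatives, from -0.43 to -0.06, and called in none of them.

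Of the transcripts of the regulatory proteins, that of IRP2 fell and that of IRP1 was not called. IREB2 (ENSG00000136381.13, chromosome 15, 78437431 to 78501453), which encodes IRP2, was at 62.7, 72.9 and 58.9 CPM in BP 1, 2 and 3 and at 30.0, 26.6 and 55.5 CPM in BP+Huaier 1, 2 and 3. BP+Huaier 1 and 2 were well below BP, while BP+Huaier 3 was just below the lowest BP library. The log2 fold change was -0.79 ± 0.26 (SE, n = 3; edgeR adjusted p = 0.049), and -1.19 without BP+Huaier 3. The call was lost without every other library (edgeR adjusted p = 0.11, 0.17 and 0.099 for BP 1, 2 and 3 left out, 0.11 and 0.18 for BP+Huaier 1 and 2). DESeq2 size factors (0.051), library size alone (0.058) and a 5 CPM minimum (0.056) put it just above 0.05, and over 16 alternatives the range was 3.4e-06 to 0.18. The GC-corrected log2 fold change was -0.56 (edgeR adjusted p = 0.015).

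ACO1 (chromosome 9, 32384603 to 32454769) encodes IRP1, which serves as a cytosolic aconitase when it holds an iron-sulfur cluster. It was at 49.9, 57.6 and 48.3 CPM in BP 1, 2 and 3 and at 57.1, 65.4 and 60.2 CPM in BP+Huaier 1, 2 and 3, with the groups overlapping between BP 2 and BP+Huaier 1. The log2 fold change was 0.23 ± 0.14 (SE; 95% interval -0.08 to 0.54; edgeR adjusted p = 0.23, range 0.018 to 0.87 over 16 alternatives), and 0.42 and called in the GC-corrected fit (0.020). Within a library, the log2 ratio of IREB2 to ACO1 counts was 0.33, 0.34 and 0.29 in BP 1, 2 and 3 and -0.93, -1.30 and -0.12 in BP+Huaier 1, 2 and 3. This ratio was chosen after its values were seen and was not tested.

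ACSL4 (chromosome X, 109624244 to 109733403) activates polyunsaturated fatty acids for use in the lipids that are oxidised in ferroptosis, an iron-dependent form of cell death. It was at 56.1, 67.8 and 56.8 CPM in BP 1, 2 and 3. In BP+Huaier 1, 2 and 3 it was at 67.9, 83.4 and 92.5 CPM, above BP in every library but only just so in BP+Huaier 1. The log2 fold change of 0.43 ± 0.16 (SE, n = 3) missed the threshold (edgeR adjusted p = 0.068, range 8.0e-04 to 0.50 over 16 alternatives). It passed without BP+Huaier 1 (0.028, log2 fold change 0.55) and without BP+Huaier 3 (0.029, 0.34), with DESeq2 (0.027), when low counts were not filtered (0.048) and in the GC-corrected fit (8.0e-04, 0.68). Unlike the ferritin genes, ACSL4 had its highest value in BP+Huaier 3, as did TFRC and SLC11A2.

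**Figure D3:**
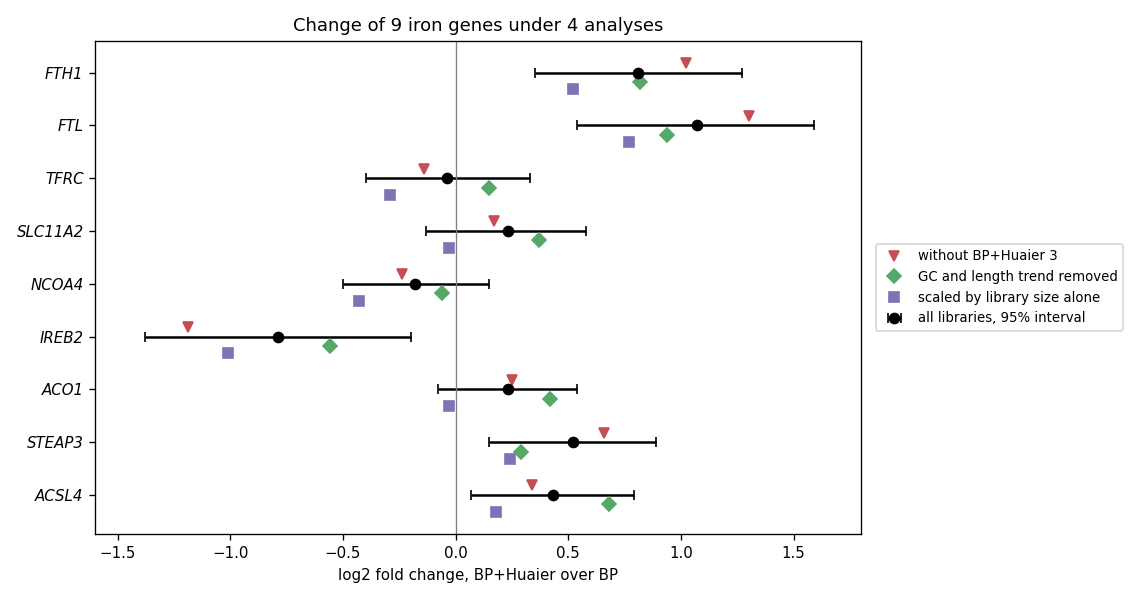
Log2 fold change of BP+Huaier over BP for the 9 tested iron genes. Black points with 95% intervals use all libraries. Coloured symbols give the value without BP+Huaier 3, with the trend on GC content and length removed (the GC-corrected fit), and with scaling by library size alone. FTH1, FTL and STEAP3 lay above 0 and IREB2 below 0 under all 4. The same held for 2 members that were not called, ACSL4 above 0 and NCOA4 below 0. SLC11A2 and ACO1 were at -0.03 with scaling by library size alone.

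The transcript GC content of the members is given because the libraries differed by it. It was 50.12% in FTH1, 56.26% in FTL and 56.85% in STEAP3, the called rises, and 38.28% in IREB2, the called fall. The 5 tested members that were not called had 37.43% to 45.71%. In the GC-corrected fit 7 of 9 members were called, the rises of FTH1, FTL, STEAP3, SLC11A2, ACO1 and ACSL4 and the fall of IREB2, where 39.0% of all genes were called. With scaling by library size alone all genes had a median log2 fold change of -0.28, and FTH1 and FTL were then at 0.52 and 0.77, still called (edgeR adjusted p = 0.025 and 0.011), with 26.2% of calls higher instead of 49.0%.

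Per kilobase of exon, so that genes can be compared, the order of levels in BP was FTL (5655 CPM per kb), FTH1 (389), NCOA4 (38.3), TFRC (30.4), STEAP3 (7.89), ACO1 (6.87), ACSL4 (6.04), IREB2 (6.0), SLC11A2 (2.69) and SLC40A1 (0.0042). The ranges over 3 libraries overlapped between neighbours from STEAP3 to IREB2 and nowhere else in this order. In BP+Huaier the order was FTL (11846), FTH1 (682), NCOA4 (33.9), TFRC (29.6), STEAP3 (11.3), ACSL4 (8.15), ACO1 (8.06), IREB2 (3.46), SLC11A2 (3.16) and SLC40A1 (0.0101). There NCOA4 overlapped TFRC, STEAP3 overlapped ACSL4, ACSL4 overlapped ACO1, and IREB2 overlapped SLC11A2. IREB2 thus had ACSL4 as its overlapping neighbour in BP and SLC11A2 in BP+Huaier. Lengths are those of all annotated exons of a gene in the deposited table, which can exceed the length of 1 transcript.

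Likeness to FTH1 and TFRC was measured over the 6 libraries as Pearson's r of log2 CPM, among 7258 protein-coding genes of at least 20 CPM, as a description with no test, since all points share library and depth. The 3 genes most like FTH1 were SH3BGRL3 (r = 0.9992), POLR2H (0.9988) and BAG6 (0.9986), among 1274 genes above 0.95. The 3 most like TFRC were SRP54 (0.9906), UFM1 (0.9808) and NUS1 (0.9803), among 25 above 0.95. The FTH1 pattern, high in BP+Huaier 1 and 2 and intermediate in BP+Huaier 3, was thus shared by many more genes than the TFRC pattern.

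Around the 10 genes, 104 further genes in 6 lists of iron and ferroptosis biology were examined. Of 81 tested, 17 were higher and 7 lower, or 29.6%, a share near the 29.3% of all genes. The lists were chosen with earlier results of these data known, and are described by counts alone. The median log2 fold changes were -0.03 for iron transport and reduction, 0.07 for sensing and chaperones, 0.14 for iron-sulfur cluster assembly, 0.17 for heme, 0.06 for other transcripts with an element and 0.62 for lipid peroxidation and ferroptosis, beside -0.02 over all genes. Without BP 1, 2 and 3 the calls numbered 6, 6 and 8, beside 11.2%, 11.6% and 13.4% of all genes. Without BP+Huaier 1, 2 and 3 they numbered 17, 7 and 48, beside 23.2%, 12.6% and 59.8%, so that the calls in the lists and those over all genes moved the same way.

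Among 9 tested genes of iron transport and reduction, 1 rose and 2 fell, or 33.3%, near the 29.3% of all genes called. SLC39A14, the transporter ZIP14 for iron not bound to transferrin, rose from 185 ± 2.22 to 267 ± 8.03 CPM (SD, n = 3), with all 3 BP+Huaier libraries close together. HFE, a partner of the transferrin receptor in iron sensing, fell 1.74-fold, from 44.7 ± 2.26 to 25.7 ± 1.94 CPM. The related metal transporter SLC39A8 (ZIP8) fell 1.33-fold. The edgeR adjusted p values were 0.014, 0.0041 and 0.037, in that order. For these 3 genes, BP+Huaier 3 lay with the other libraries of its group, at 266, 23.8 and 46.3 CPM against 259 and 275, 27.6 and 25.8, and 48.3 and 45.2.

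Of 9 tested genes of iron sensing and iron chaperones, 1 rose and 2 fell, or 33.3%, near the 29.3% of all genes called. CUL1, the scaffold of the ubiquitin ligase that degrades IRP2, fell 1.53-fold and HERC2, a ubiquitin ligase that targets NCOA4, fell 1.52-fold (edgeR adjusted p = 0.013 and 0.017). FBXL5, the iron-sensing subunit that directs the ligase to IRP2, was at 47.0 ± 1.18 and 47.0 ± 1.35 CPM (edgeR adjusted p = 0.99). PCBP2, which delivers iron to ferritin, rose 1.34-fold (0.047), and its relative PCBP1 went from 38.8 ± 5.02 to 60.0 ± 16.79 CPM without passing the test (0.053). PCBP1 was called without BP+Huaier 3 (9.8e-05), with DESeq2 (0.022), when low counts were not filtered (0.0025) and in the GC-corrected fit (0.021). On the opposite strand, PCBP1-AS1 shares 73.2% of the exon bases of PCBP1, MAP3K12 18.8% of those of PCBP2. TAX1BP1, an autophagy receptor that acts with NCOA4, was at 83.5 ± 8.25 and 78.6 ± 16.80 CPM (0.72).

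In the list of iron-sulfur cluster assembly 3 of 25 tested genes rose. In either direction 16.0% of the list was called, beside 29.3% of all genes. The rises were CIAO2B, a subunit of the cytosolic machinery, 1.72-fold, ISCA2, a mitochondrial assembly factor, 1.42-fold, and the scaffold ISCU, 1.40-fold (edgeR adjusted p = 0.014, 0.045 and 0.034).

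Of 16 tested genes of heme synthesis and breakdown 4 rose and 1 fell, or 31.2%, near the 29.3% of all genes called. The enzyme that frees iron from heme, HMOX1, rose 3.69-fold and was at 64.2, 86.7 and 39.8 CPM in BP+Huaier 1, 2 and 3, above 17.2 ± 1.6 CPM in BP (SD, n = 3; edgeR adjusted p = 0.0021). SLC48A1, a lysosomal heme transporter, rose 1.91-fold, and BLVRB, which encodes biliverdin reductase B, rose 1.8-fold (0.0071 and 0.021). Named after their values were seen, ALAS1, which starts heme synthesis, rose 1.37-fold and the transporter FLVCR2 fell 2.03-fold (edgeR adjusted p = 0.046 and 0.015). Both calls were lost without BP 1, BP 2 or BP 3 (0.056 to 0.18), and that of ALAS1 without BP+Huaier 1 or 2 as well (0.10 and 0.16). FLVCR2 was low, at 3.42 ± 0.26 CPM in BP and 1.69 ± 0.27 in BP+Huaier, and was not tested with a 5 CPM minimum. Of the other transcripts described as carrying iron-responsive elements, 4 were tested. Of these 50.0% were called, beside 29.3% of all genes, a share of so few genes that it is only a description. EPAS1, the hypoxia factor HIF-2α, rose 2.19-fold, from 6.38 ± 0.89 to 14.0 ± 2.92 CPM, and CDC42BPA, a kinase, fell 2.07-fold, from 64.4 ± 3.98 to 31.1 ± 13.07 CPM (0.0060 and 0.017). The element search matched 3 of the 5 genes of this list, and neither EPAS1 nor CDC42BPA.

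In the list of lipid peroxidation and ferroptosis, where ACSL4 acts, 7 of 18 tested genes rose and the other 11 were not called. Of all genes 14.4% were called higher and 15.0% lower. SAT1, an enzyme of polyamine breakdown, rose 4.79-fold, from 70.0 ± 6.17 to 336 ± 108 CPM (SD, n = 3; edgeR adjusted p = 9.0e-04), with BP+Huaier 3 at 360 CPM above BP+Huaier 1 at 218 CPM. SLC3A2, the heavy chain shared by several amino acid transporters, rose 3.23-fold and AIFM2, which regenerates reduced coenzyme Q at membranes, rose 1.75-fold (edgeR adjusted p = 0.0023 and 0.013). AIFM2 shares 19.2% of its exon bases with MACROH2A2 on the opposite strand. Named after their values were seen, POR, GCH1, ALOX12 and MBOAT1 rose 1.61-fold, 1.6-fold, 1.57-fold and 1.67-fold (edgeR adjusted p = 0.030, 0.024, 0.024 and 0.040), and leaving out BP 1, BP 2, BP 3 or BP+Huaier 2 ended each of these calls (0.058 to 0.16). Those of POR and MBOAT1 were lost without BP+Huaier 1 too (0.069 and 0.056), and those of all 4 with scaling by library size alone (0.063, 0.16, 0.15 and 0.20). In the GC-corrected fit ALOX12 was not called (log2 fold change 0.43, 0.078), and POR was at 0.33 instead of 0.68 (0.023). MBOAT1 was low, at 2.60 ± 0.33 CPM in BP and 4.33 ± 0.73 in BP+Huaier, and was not tested with a 5 CPM minimum. GPX4, which reduces lipid hydroperoxides, went from 355 ± 23.10 to 554 ± 169 CPM (0.059, range 1.9e-06 to 0.19 over 16 alternatives), and was called without BP+Huaier 3 (1.9e-06), by DESeq2 (0.021) and with no filter on low counts (9.6e-04). Its log2 fold change of 0.64 became 0.33 in the GC-corrected fit and 0.34 with scaling by library size alone, not called in either (0.056 and 0.14). SLC7A11, the cystine transporter that pairs with SLC3A2, was low, at 2.29 ± 0.52 and 1.28 ± 1.05 CPM (0.25), and without BP+Huaier 3 it was called lower (log2 fold change -1.72, 0.0019).

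HFE, HMOX1, SLC48A1, EPAS1, SAT1 and SLC3A2 passed the test under all 16 alternatives. The calls of SLC39A14, SLC39A8, CUL1, HERC2, PCBP2, CIAO2B, ISCA2, ISCU, BLVRB, CDC42BPA and AIFM2 were lost without BP 1, without BP 2 and without BP+Huaier 2 (edgeR adjusted p from 0.051 to 0.20). Those other than CDC42BPA and AIFM2 were lost without BP 3 too, and those of SLC39A8, PCBP2, ISCA2 and ISCU without BP+Huaier 1. Scaling by library size alone ended the calls of SLC39A14, PCBP2, ISCA2 and ISCU (0.12, 0.25, 0.24 and 0.20), and that of ALAS1 (0.23). The replicate number as a block ended the calls of SLC39A14, SLC39A8, PCBP2, ISCA2, ISCU and ALAS1 (0.062, 0.11, 0.13, 0.11, 0.093 and 0.11). It also ended those of POR, ALOX12 and MBOAT1 (0.064, 0.073 and 0.096). A 5 CPM minimum ended those of PCBP2, ISCA2, ISCU and ALAS1 (0.071, 0.075, 0.054 and 0.072). SLC39A8 was not called when low counts were not filtered (0.14). None of the calls named here as lost passed an adjusted p under 0.01.

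**Figure D4:**
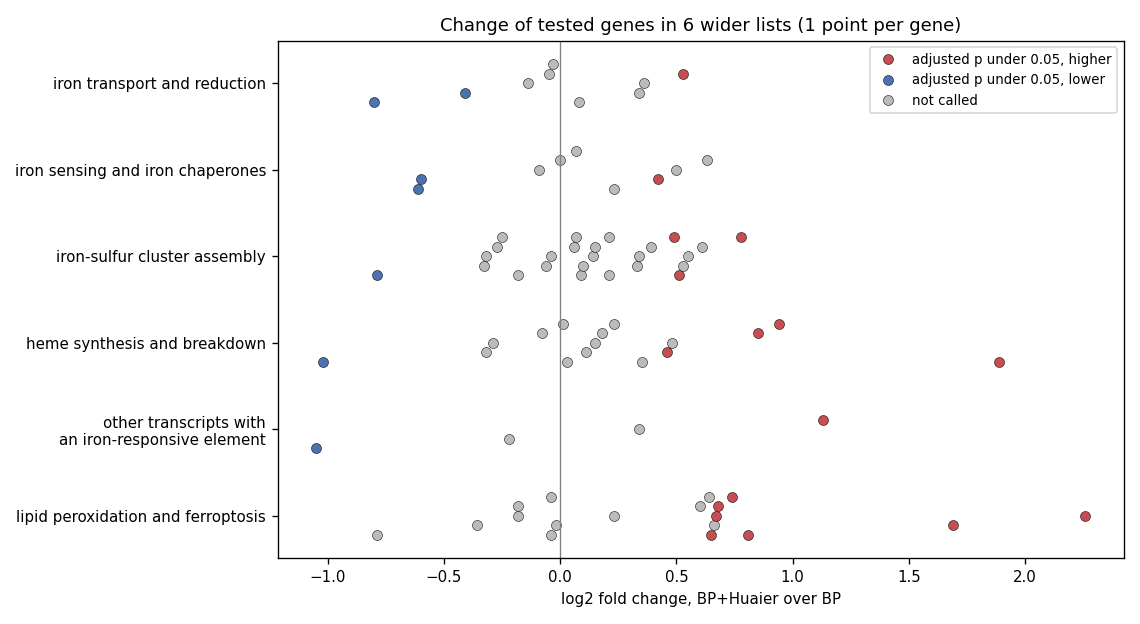
Log2 fold change of BP+Huaier over BP for each tested gene of the 6 wider lists (1 point per gene, red and blue for genes called higher and lower at an adjusted p under 0.05, grey for the others). Called genes lay on the higher side alone in the list of lipid peroxidation and ferroptosis, which reached 2.26 for SAT1, and on both sides of 0 in the list of iron transport and reduction.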

How the data were processed

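Counts of reads per gene, not normalized, were deposited by the authors for 3 BP and 3 BP+Huaier libraries of MIA PaCa-2 cells. Paired reads of 150 bp came from TRIzol-extracted RNA, per the labels' protocols. The submitters' processing notes name GRCh38 and the tools featureCounts 1.6.1, HISAT2 2.1.0 and fastp 0.20.0. Not given in the sources used here are the annotation release, the use of strand and the treatment of multi-mapping or overlapping reads. Gene IDs were matched to symbols for 99.77% of 60604 genes. The 44 pseudoautosomal Y copies, all at 0, and ANK2, whose line is broken over 3 lines, were left out.

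Genes passing filterByExpr were tested with edgeR 4.0.16 (R 4.3.3; TMM, robust quasi-likelihood test, group as the only term, Benjamini-Hochberg over all genes, adjusted p under 0.05), which was tested on simulated data. There 57% of 2-fold and 95% of 4-fold changes were called, and 5.59% of calls were false. The simulated libraries of a group shared the same changes, so none lay between the groups as BP+Huaier 3 did. Far fewer genes were changed there than were called in the data, and no library had a GC trend of its own. The rates may therefore not hold for these data. CPM are counts per 1000000 counts of the TMM-scaled library, and intervals are 95% and not adjusted for the number of genes. The common biological coefficient of variation was 18.1%. Total counts of 15657593 to 17036565 put 3 counts at 0.16 to 0.22 CPM. The FTH1 to FTL ratio was tested by a two-sided exact permutation test, and other ratios are described without a test. The 16 alternatives used DESeq2 size factors, library size alone, DESeq2 1.42.0, limma-voom 3.58.1, 2 other filters, the replicate number as a block, offsets from a spline on GC content and length per library (the GC-corrected fit, 99.2% of tested genes had both) with and without that block, an adjusted p under 0.01, and each library left out in turn. Elements were searched in GENCODE 29 transcripts, and coordinates of genes are those of the deposited table.

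The members and lists were chosen with earlier results of these data known. Named genes are all members, ferritin copies with the highest counts (2 for each parent), the 3 genes most like FTH1 and TFRC, the 3 called genes with the largest change in each wider list at a mean of at least 5 CPM, and FBXL5, PCBP1, PCBP2, TAX1BP1, SLC39A14, HMOX1, GPX4 and SLC7A11. Exceptions are marked as named after their values were seen. Some items of the lists are not reported here.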

Additional observations from a re-analysis of the deposited data

How the results depend on the processing

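The 4 called members were 2 with scaling by library size alone, 2 with genes of at least 5 CPM, 7 in the GC-corrected fit and 0 by edgeR at an adjusted p under 0.01 (5 members at an unadjusted p under 0.05), and 0 to 5 with 1 library left out. The median log2 fold change of the members, 0.23, turned to -0.03 with library size alone, where the median of all genes was -0.28. All genes called, 4406, were 2894 with at least 5 CPM, where 10629 were tested, 1636 at 0.01, and 1719 to 9245 with 1 library left out. The 24 calls of the wider lists became 14 with the replicate block, 6 at 0.01 and 6 to 48 with 1 library left out. Some of these alternatives use fewer genes or libraries, and the cause of the changed numbers was not tested. FTH1, FTL, STEAP3, IREB2, NCOA4 and ACSL4 kept the sign of their log2 fold change in all 16 alternatives. The FTH1 to FTL difference lay between -0.28 and -0.21 with 1 library left out, with no correction for GC content. At this depth SLC40A1 was below the floor of 3 counts in each library.

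The replicate numbers are shared between groups, and nothing in the labels says that they pair libraries. The deviations of same-numbered libraries from their group means correlated at 0.01, -0.06 and -0.28 over genes (other pairs -0.26 to 0.26), and no library correlated best with its own number. With the replicate block 3 members were called, 2 higher and 1 lower, and 20.6% of all genes. The call lost was that of STEAP3 (edgeR adjusted p = 0.085).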
